A study of Mus musculus with 53 samples.

Results

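The 10 genes described here encode proteins of the blood-nerve barrier and of endothelium. They were taken by symbol for these roles and make up 10 of the 49568 genes with values in every library: Cldn5, Cldn1, Ocln, Tjp1, Cdh5, Pecam1, Abcb1a, Plvap, Kdr and Flt1. RNA from the sciatic nerve of male C57BL/6J mice was sequenced in 53 libraries that form 8 groups, sampled when the mice were 16 or 24 weeks old. At 16 weeks the groups were mice on standard diet (SD16, n = 5), mice on a high-fat diet with 60% of kcal from fat since 5 weeks of age (HFD16, n = 7), and high-fat diet mice that also received streptozotocin, a toxin of pancreatic beta cells, at 12 weeks as 75 mg/kg and 3 days later 50 mg/kg (HFD-STZ16, n = 5). At 24 weeks they were SD24 (n = 8), HFD24 (n = 7), HFD-STZ24 (n = 8), and high-fat diet mice without or with streptozotocin that were returned to control diet at 16 weeks for 8 weeks, called dietary reversal (HFD-DR24, n = 7, and HFD-STZ-DR24, n = 6). All groups were of this strain. Replicate numbers below only name libraries.

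Nerve fibres are shielded from the circulation at the vessels inside the fascicle, whose endothelial cells are sealed by tight junctions, and at the perineurium, a sleeve of flattened cells around each fascicle that is sealed by tight junctions of its own. Claudins and occludin span the membrane at these junctions and are tied to the cytoskeleton by zonula occludens proteins, while VE-cadherin holds endothelial cells together at adherens junctions. Whole nerve also holds vessels of the epineurium, which are more permeable, together with fat, Schwann cells and fibroblasts.

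The values are log2 expression values as deposited, and a difference of 1 is a 2-fold difference in the scale the authors used. How that scale was normalised is not stated, so a difference of 1 need not be a 2-fold difference in RNA. All 10 genes passed the filter on low values, a floor on the mean level of about 10 on the linear scale. Provided that the values were not already divided by gene length, which is not stated, the mean log2 level per kilobase of merged exon sequence was highest for Cldn5 (11.62), followed by Cldn1 (11.08), Tjp1 (10.31), Plvap (10.27), Pecam1 (9.28), Abcb1a (9.07), Cdh5 (8.66), Kdr (8.37), Flt1 (7.33) and Ocln (6.98). As deposited, the mean was highest for Cldn1 (13.36), Tjp1 (13.28) and Cldn5 (12.13), and Ocln was again lowest (9.05). The labelled tissue carried its markers: the highest mean deposited log2 value was 20.18 for Pmp22, a myelin protein, among the 6 myelinating Schwann cell markers, 15.21 for Itgb4 among the 6 perineurial markers and 12.92 for Vwf among the 18 endothelial markers. Itgb4 need not come from perineurium alone. The other perineurial markers averaged 14.05 (Slc2a1), 11.60 (Msln), 11.38 (Perp), 10.49 (Krt19) and 9.75 (Lypd2).

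The genes differed widely in how far single mice spread within a group. The within-group SD was 1.16 for Plvap and 0.94 for Cldn1, higher than that of 98.4% and 97.0% of 18073 genes, and 0.16 for both Kdr and Flt1, higher than that of 16.6% and 19.2%. The median within-group SD of all these genes was 0.26. Differences between group means of Plvap and Cldn1 therefore had wide intervals, and those of the 2 VEGF receptors had narrow ones.

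**Figure D1:**
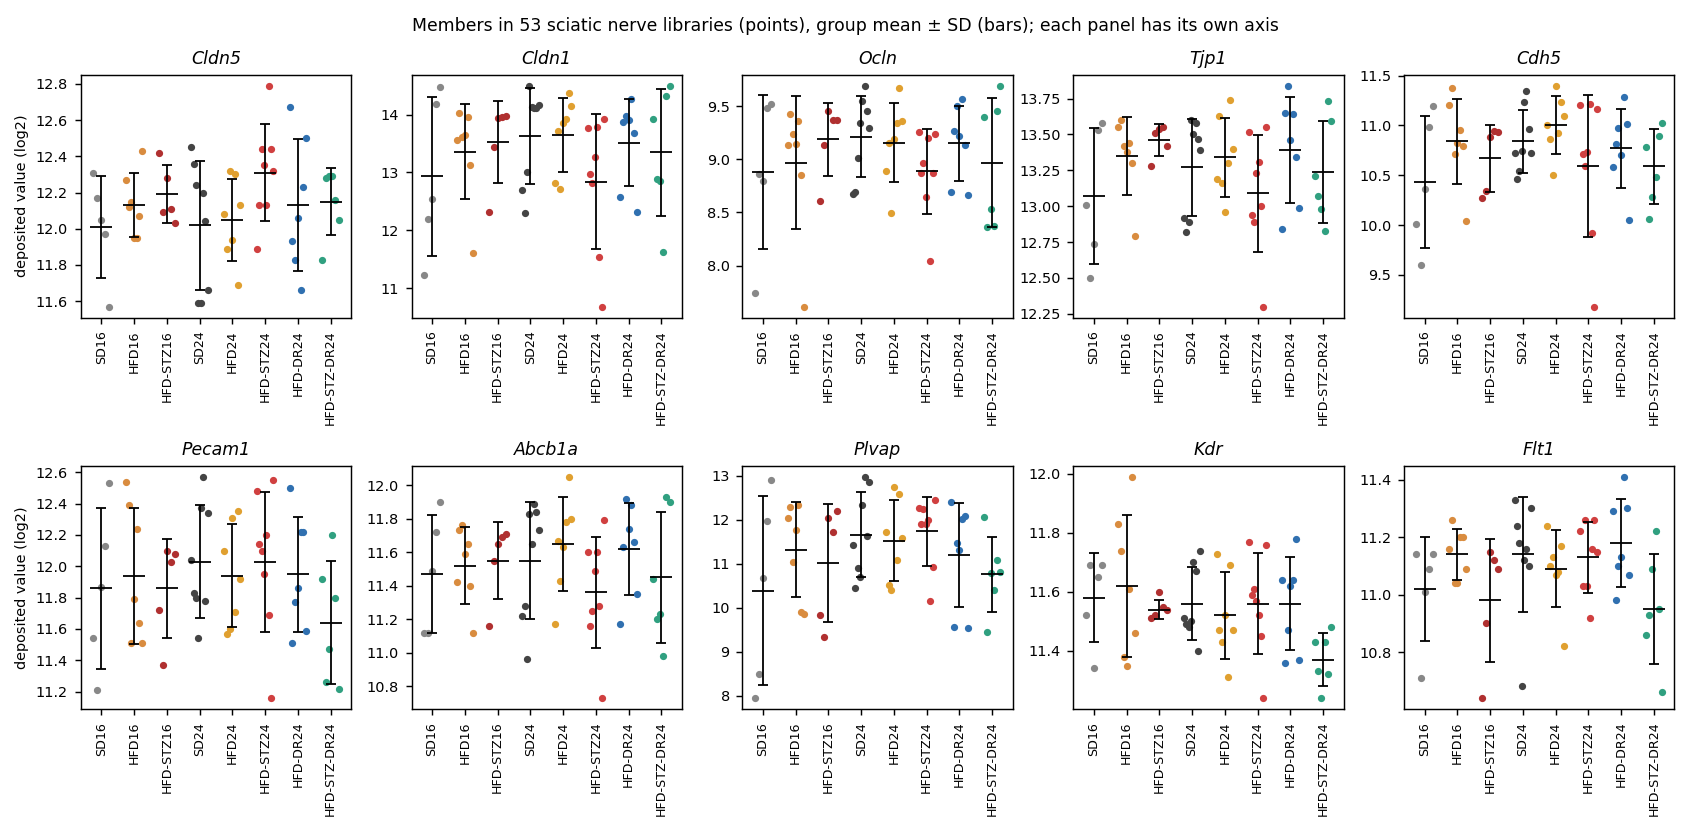
Deposited log2 value of each gene (vertical axis, own scale per panel) in every library (points) of the 8 groups, with bars for the group mean ± SD. In each of the 14 pairs of groups compared the libraries overlapped, and Plvap ranged from 7.95 to 12.97 while Kdr ranged from 11.24 to 11.99.

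No gene of the list passed an adjusted p of 0.05 in any comparison (limma, Benjamini-Hochberg over all genes tested). The F test over the 8 groups called 0 of the 10, at a background of 1.97% of genes called, and its smallest adjusted p among them was 0.473, for Flt1. At an unadjusted p under 0.05 that F test also counted 0 of the 10, and 14.6% of all genes. The background was low throughout, so a count of 0 among 10 genes is near it: 0.00557% of genes were called in HFD16 vs SD16, 0.121% in HFD24 vs SD24, 0.0336% in HFD-STZ24 vs SD24, 0.0108% in HFD-DR24 vs HFD24, 0.0839% in HFD-STZ-DR24 vs HFD-STZ24 and 0.0653% in HFD24 vs HFD16. Of the 140 limma tests of a member in a pairwise comparison, 6 had an unadjusted p under 0.05, a threshold that 3.58% to 12.5% of all genes passed in single comparisons. In the other 8 pairwise comparisons and in the 3 tests of whether an effect differed with age or with streptozotocin, 0% of genes were called. Missing the threshold does not show that the levels were alike, and the intervals below give the differences that the data allow.

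All 6 adipocyte markers were higher in HFD16 than SD16, 5 at an unadjusted p under 0.05 (median 2.29), as were all 5 red blood cell markers, each at that p (median 2.77), and none was called, while 8.56% of all genes had such a p at a median of 0.012. All 10 members were higher there too (median 0.12). The summed log2 level of the 6 adipocyte markers had a lowest, median and highest value of 11.57, 14.64 and 15.92 in SD16 and of 14.27, 15.47 and 16.68 in HFD16. With the adipocyte and skeletal muscle scores as covariates, the fitted differences of HFD16 from SD16 were -1.92 for Cldn1, -1.41 for Ocln and -2.28 for Plvap, each past the threshold (limma adjusted p = 0.0395, 0.0293 and 0.0293), whereas without covariates they were 0.44, 0.087 and 0.92. That fit called 0.763% of all genes (137 of 17966). The adipocyte score itself averaged 10.16 in SD16 and 12.53 in HFD16, so the fit cannot fully separate diet from this covariate. In HFD24 vs SD24 Pecam1 passed in the same way (-0.40, limma adjusted p = 0.0298, and -0.096 without covariates), where 0.786% of all genes were called (143 of 18195). Without covariates 5 of 6 adipocyte markers were higher there (list median 0.94), and Cfd was lower by 1.869. The 5 skeletal muscle markers tested were all lower in it (median -1.725). With these covariates most of 18 endothelial markers were lower than in the standard diet group: 17 in HFD16 (5 at an unadjusted p under 0.05), 18 in HFD-STZ16 (8), 18 in HFD24 (10) and 16 in HFD-STZ24 (5), where 49.4%, 49.1%, 50.1% and 47.2% of all genes were lower and 10.3%, 5.22%, 6.31% and 8.54% were so at that p. Without covariates these counts were 6, 12, 15 and 11.

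Cldn5, the claudin that dominates endothelial tight junctions, lies on chromosome 16 at positions 18776847 to 18778262 on the plus strand (GRCm38), and Cldn1, prominent in perineurium and in epithelia, lies on the same chromosome at 26356642 to 26371841 on the minus strand. The 250 bases before each start in RefSeq are printed 5′ to 3′ on the gene's own strand (GRCm38.p6), Cldn5 at chr16:18776597-18776846 and Cldn1 at chr16:26371840-26372089. Any link of these sequences to the opposite movement of the 2 genes between mice (below) was not tested. Capitals mark the GC box GGGCGG and the ETS core AGGAAG, searched on both strands.
Cldn5: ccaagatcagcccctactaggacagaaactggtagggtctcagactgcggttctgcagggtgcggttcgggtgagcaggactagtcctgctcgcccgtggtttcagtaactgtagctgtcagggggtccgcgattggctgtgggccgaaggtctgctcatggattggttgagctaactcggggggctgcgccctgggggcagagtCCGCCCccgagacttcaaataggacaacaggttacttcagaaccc
Cldn1: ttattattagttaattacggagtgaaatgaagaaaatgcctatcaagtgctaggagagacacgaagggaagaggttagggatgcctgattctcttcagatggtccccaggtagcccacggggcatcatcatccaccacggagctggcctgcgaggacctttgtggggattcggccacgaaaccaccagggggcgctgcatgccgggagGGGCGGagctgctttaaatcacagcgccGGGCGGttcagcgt
The GC box occurred 1 time before Cldn5 and 2 times before Cldn1, and in 32.7% of 32851 promoters of this length. The ETS core was not among the letters of either window and was in 29.5% of promoters. CCAAT, on either strand, was found in 33.9% of promoters, with 2 copies before Cldn5 and none before Cldn1.

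Cldn5 in SD16 was 12.31, 12.17, 12.05, 11.97 and 11.57, and in HFD-STZ16 it was 12.42, 12.09, 12.28, 12.11 and 12.03. HFD16 ran from 11.95 through a median of 12.12 to 12.43. At 24 weeks the lowest, median and highest values were 11.59, 12.12 and 12.45 in SD24, 11.69, 12.08 and 12.32 in HFD24, and 11.89, 12.33 and 12.79 in HFD-STZ24. HFD-STZ24 thus held the highest library, replicate 6, and the highest group mean (12.31 ± 0.27 SD, n = 8), but it overlapped every other group. Cldn5 was 0.26 higher in HFD-STZ24 than in HFD24 (95% interval 0.0022 to 0.52, limma adjusted p = 0.785) and 0.30 higher than in SD24 (-0.015 to 0.61, adjusted p = 0.833). The 2-sided exact permutation p was 0.0633 and 0.0824. In HFD24 the mean was 0.035 above SD24, an interval of -0.27 to 0.34, and the sign of this difference changed with the library left out (-0.026 to 0.097). From lowest to highest, the order of group means was SD16, SD24, HFD24, HFD-DR24, HFD16, HFD-STZ-DR24, HFD-STZ16 and HFD-STZ24, and no neighbours in it differed beyond their spread.

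Cldn1 was 11.23, 12.20, 12.54, 14.19 and 14.47 in SD16, a range of over 3 log2 units among 5 mice of one group. HFD-STZ16 held 12.32, 13.44, 13.94, 13.96 and 13.97. The lowest, median and highest values at 24 weeks were 12.29, 14.12 and 14.50 in SD24, 12.71, 13.86 and 14.37 in HFD24, and 10.68, 13.12 and 13.93 in HFD-STZ24. Libraries with low Cldn1 were scattered over groups: HFD-STZ24 replicates 7 and 6 (10.68 and 11.54), SD16 replicate 1 (11.23), HFD16 replicate 7 (11.61) and HFD-STZ-DR24 replicate 4 (11.63). HFD-STZ24 had the lowest mean (12.84 ± 1.17 SD, n = 8), 0.78 below SD24, an interval of -1.76 to 0.19 (adjusted p = 0.833). Without HFD-STZ24 replicate 7 this difference was -0.47, and with the adipocyte and skeletal muscle scores as covariates it was -1.44 (adjusted p = 0.207). All 6 perineurial markers were lower in that comparison as well, 1 of them at an unadjusted p under 0.05 (median difference -0.53; 5.99% of all genes had such a p, at a median of 0.00055), as were all 6 fibroblast markers (median -0.34). Their part in the Cldn1 difference was not tested, and fewer cells of a type cannot be told apart from less RNA per cell in whole nerve. Reversal from HFD-STZ24 gave a difference of 0.50 (-0.68 to 1.69).

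Occludin, Ocln, and zonula occludens 1, Tjp1, the scaffold under the junction, followed with smaller spreads. Ocln ranged from 7.61 in HFD16 replicate 7 to 9.69 in HFD-STZ-DR24 replicate 6, and its group means from 8.88 in SD16 to 9.21 in SD24. Tjp1 ranged from 12.30 in HFD-STZ24 replicate 7 to 13.84 in HFD-DR24 replicate 3. Its group means ran from 13.07 in SD16 to 13.46 in HFD-STZ16, where the 5 libraries lay within 13.28 to 13.55. The Tjp1 difference of HFD-STZ16 from SD16 was 0.39 (-0.024 to 0.80, limma adjusted p = 0.586), or 0.25 without SD16 replicate 2 and 0.20 with the same covariates, and the difference of HFD-STZ24 from HFD-STZ16 was -0.37 (adjusted p = 0.401). Whether the HFD-STZ effect on Tjp1 changed with age was tested directly, and that difference of -0.57 had an adjusted p of 0.757.

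Of 19 other tight junction genes, 15 or 16 were tested in each of the 4 main comparisons at 24 weeks and none was called in any comparison. Cldn15, a claudin that forms cation pores in gut epithelium, had the smallest p of this group in all 4: it was 0.68 higher in HFD24 than SD24 (adjusted p = 0.354), 0.39 higher in HFD-STZ24 than SD24 (adjusted p = 0.813), and its differences after reversal were -0.75 in HFD-DR24 vs HFD24 (adjusted p = 0.578) and -0.60 in HFD-STZ-DR24 vs HFD-STZ24 (adjusted p = 0.225). These comparisons share SD24, HFD24 or HFD-STZ24 libraries. Cldn19, a claudin of Schwann cells, had the highest mean deposited log2 value of this group, 14.02.

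Cdh5 encodes VE-cadherin and Pecam1 an adhesion molecule at endothelial contacts. Cdh5 ranged from 9.18 in HFD-STZ24 replicate 7 to 11.40 in HFD24, with the lowest group mean in SD16 (10.43 ± 0.66 SD, n = 5) and the highest in HFD24, where the 7 libraries lay between 10.50 and 11.40. It was 0.16 higher in HFD24 than SD24 (-0.15 to 0.47, limma adjusted p = 0.738), and its difference after reversal was -0.23 in HFD-DR24 (-0.59 to 0.13, adjusted p = 0.872). Without HFD-DR24 replicate 7 the latter was -0.11, and the former was 0.093 without HFD24 replicate 4, 0.11 without SD24 replicate 2 and 0.24 without HFD24 replicate 3. With the covariates these differences changed sign (-0.057 and 0.018). Pecam1 in SD16 was 11.54, 11.21, 11.87, 12.13 and 12.53, and in HFD-STZ16 it was 11.72, 11.37, 12.10, 12.03 and 12.08. The lowest, median and highest values were 11.54, 11.93 and 12.57 in SD24, 11.16, 12.12 and 12.55 in HFD-STZ24, and 11.22, 11.64 and 12.20 in HFD-STZ-DR24. HFD-STZ-DR24 had the lowest group mean, 11.64 ± 0.39 (SD, n = 6), within the range of HFD-STZ24.

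Abcb1a encodes P-glycoprotein, an efflux pump of barrier endothelium, and Plvap the diaphragm protein of fenestrated and leaky endothelium. Abcb1a ranged from 10.73 in HFD-STZ24 replicate 7 to 12.05 in HFD24 replicate 6 with a difference between HFD-STZ24 and HFD24 of -0.28 (-0.60 to 0.032, limma adjusted p = 0.785). Its value is less certain than the others, because other genes, among them its close copy Abcb1b, hold 8.51% of the windows of 100 bases in its longest transcript, and 10.1% of its exon bases are shared with an overlapping predicted gene. Plvap was 7.95, 8.50, 10.67, 11.96 and 12.89 in SD16 and 9.84, 9.33, 12.03, 11.71 and 12.19 in HFD-STZ16. At 24 weeks the lowest, median and highest values were 10.44, 11.52 and 12.97 in SD24, 10.41, 11.59 and 12.73 in HFD24, 10.15, 11.94 and 12.44 in HFD-STZ24, 9.54, 11.46 and 12.40 in HFD-DR24 and 9.45, 10.80 and 12.05 in HFD-STZ-DR24. The 2 lowest libraries, both SD16, lay more than 2 log2 units below the third of their group. Of 12 other transport genes none was called, and Abcc4, another efflux pump, had differences from SD24 of -0.23 in HFD24 (adjusted p = 0.513) and -0.23 in HFD-STZ24 (adjusted p = 0.801).

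Kdr and Flt1 encode the VEGF receptors 2 and 1. Kdr in SD16 was 11.52, 11.69, 11.34, 11.65 and 11.69, and in HFD-STZ16 it was 11.51, 11.52, 11.60, 11.55 and 11.54, the tightest group of all. The lowest, median and highest values were 11.40, 11.51 and 11.74 in SD24, 11.31, 11.47 and 11.73 in HFD24, 11.24, 11.58 and 11.77 in HFD-STZ24, 11.36, 11.62 and 11.78 in HFD-DR24, and 11.24, 11.38 and 11.48 in HFD-STZ-DR24. All 6 HFD-STZ-DR24 libraries lay below the medians of HFD-STZ24 and SD24, and their ranges overlapped with those 2 groups. The Kdr difference of HFD-STZ-DR24 was -0.19 from HFD-STZ24 (-0.36 to -0.018, limma adjusted p = 0.697), -0.19 from SD24 (adjusted p = 0.412) and -0.18 from HFD-DR24 (adjusted p = 0.999), with 2-sided exact permutation p of 0.0330, 0.0123 and 0.0332. With the adipocyte and skeletal muscle scores as covariates these 3 differences were -0.012, -0.12 and -0.10, and relative to the mean of 18 endothelial markers they were 0.065, 0.075 and -0.041. All 6 adipocyte markers were lower in each of the 3 comparisons (medians -2.11, -1.48 and -1.03). Flt1 was lowest on average in the same group (10.95 ± 0.19 SD, n = 6), with a difference of -0.23 from HFD-DR24 (adjusted p = 0.999, exact permutation p = 0.0338), or -0.091 relative to the endothelial markers. The difference between the reversal effects with and without streptozotocin on Flt1 was -0.27 (-0.51 to -0.038, adjusted p = 1.00), or -0.058 relative to the endothelial markers. In that contrast 17 of 18 endothelial and 6 of 6 adipocyte markers were lower (medians -0.22 and -0.96, all genes 0.00375), as were all 5 skeletal muscle markers tested (-1.81), whereas all 6 perineurial and all 5 macrophage markers were higher (0.45 and 0.26). Over the 140 pairs of a gene and a comparison, 4 had a permutation p under 0.05, and in none did the groups fail to overlap.

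In the 16 other genes of VEGF and angiopoietin signalling none was called. Apln, a peptide made by sprouting endothelium, had the smallest p among those that were lower in 3 of the 4 main comparisons, with differences of -0.65 in HFD24 and -0.74 in HFD-STZ24 from SD24 (limma adjusted p = 0.266 and 0.795) and -0.37 in HFD-DR24 from HFD24 (adjusted p = 0.668). Nrp1, a co-receptor of Kdr, took that place in HFD-STZ-DR24 vs HFD-STZ24 at -0.51 (adjusted p = 0.585). Of 10 genes of the Wnt programme that sets barrier identity in the brain, Tspan12 had a difference of -1.03 in that comparison (adjusted p = 0.124).

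**Figure D2:**
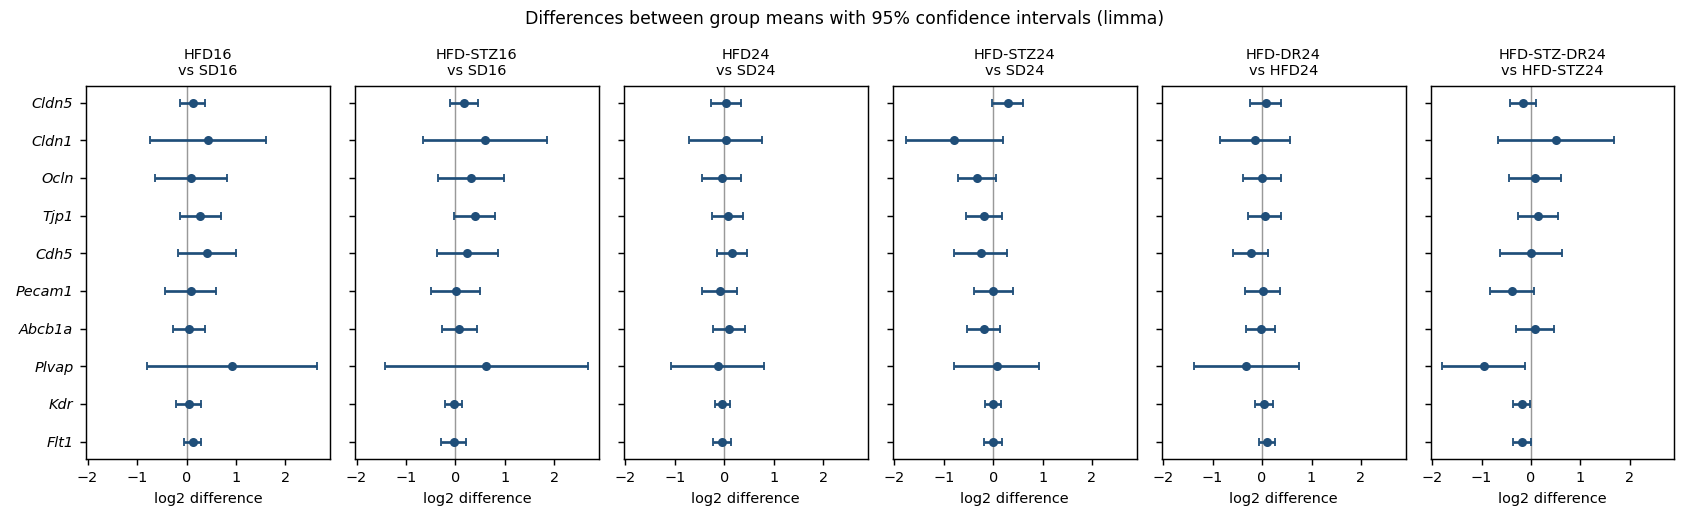
Log2 difference between group means (horizontal axis) of each of the 10 genes in 6 comparisons, with 95% confidence intervals (limma). Intervals of Plvap and Cldn1 were the widest, and only those of Plvap and Kdr in HFD-STZ-DR24 vs HFD-STZ24 left out 0.

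In HFD-STZ-DR24 vs HFD-STZ24, 6 of the 10 genes were lower. Plvap differed by -0.96 (-1.81 to -0.11, limma adjusted p = 0.668), Pecam1 by -0.39 (-0.84 to 0.060), Kdr by -0.19 and Flt1 by -0.18, while Cdh5 differed by -0.0013. Among 18 further endothelial markers 18 were lower, 9 of them at an unadjusted p under 0.05, with a median difference of -0.25, and none was called (limma). Over all 17868 genes tested, 48.1% were lower, 4.51% were lower at that p, and the median difference was 0.0069. Esam, an endothelial adhesion molecule, had the smallest p of the markers, at a difference of -0.26 (adjusted p = 0.151). Most of the 18 markers were higher in HFD-STZ24 vs HFD-STZ16 (16), SD24 vs SD16 (15), HFD-STZ24 vs HFD24 (14) and HFD16 vs SD16 (12). Of all genes 47.1% to 52.1% were lower there. At an unadjusted p under 0.05 were 4, 0, 2 and 0 (12.5%, 10.5%, 5.6% and 8.56% of all genes, either direction). With the covariates 8, 17, 4 and 17 of the 18 were lower there. All 6 adipocyte markers were higher in these comparisons except HFD-STZ24 vs HFD24, where 4 were lower. In the comparisons that follow most of the 18 endothelial markers were lower, and those with HFD-STZ-DR24 share its libraries. In HFD24 vs SD24 and in HFD-STZ16 vs HFD16 these were 15, 1 and 2 at an unadjusted p under 0.05 (medians -0.084 and -0.14; 48% and 49.4% of all genes lower, 3.51% and 2.89% at that p). In HFD-STZ-DR24 vs SD24 these were 18 of 18, 6 at that p (median -0.26; 52.3% of all genes lower, 4.67% at that p), where 9 of the 10 genes were lower too. In HFD-STZ-DR24 vs HFD-DR24 these were 17, none at that p (median -0.15; 52% and 2.1% of all genes), and in HFD-DR24 vs SD24 17, 2 at that p (median -0.12; 52.8% and 1.43%). All 6 adipocyte markers were lower in each of these last 3 (medians -1.48, -1.03 and -0.44). The 5 skeletal muscle markers tested were all lower in the first 2 of them (medians -1.04 and -1.74) and all higher in the third (1.14). In HFD-STZ-DR24 vs SD24 all 5 macrophage, 6 perineurial and 6 fibroblast markers were lower (medians -0.45, -0.33 and -0.21). All 5 red blood cell markers were higher there (0.14). With the covariates 11, 12 and 10 of the 18 endothelial markers were lower in those last 3 comparisons. In HFD-STZ-DR24 vs SD24 the covariates turned the differences of Plvap (-0.89) and Pecam1 (-0.39) to 0.21 and 0.0016. In HFD-STZ16 vs HFD16, 6 of the 18 were lower with the covariates, none at that p (50.8% and 2.97% of all genes). There 5 of 6 adipocyte, all 5 skeletal muscle and all 5 red blood cell markers tested were lower without covariates (medians -1.16, -1.44 and -1.58).

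In HFD-DR24 vs HFD24 the 18 markers were lower in 13 cases, 1 of them at an unadjusted p under 0.05, with a median of -0.041, while 50.6% of all 18479 genes were lower, 4.57% at that p. Leaving out single libraries gave 7 to 16 lower, with 7 and a median of 0.029 without HFD24 replicate 6, and the median was also above 0 without HFD24 replicate 4 (0.012) or HFD-DR24 replicate 2 (0.0037). Of the 6 adipocyte markers 5 were lower (list median -1.22), and Cfd was higher by 1.18 (adjusted p = 0.716). The 5 skeletal muscle markers tested were all higher, 4 at that p (median 2.68), and all 5 macrophage markers were lower, 2 at that p (median -0.51). With the adipocyte and skeletal muscle scores as covariates 3 of the 18 endothelial markers were lower (median 0.12), as were 51.7% of all genes.

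All 6 adipocyte markers were lower in HFD-STZ-DR24 than HFD-STZ24 and none was called, 5 of them at an unadjusted p under 0.05, with a median difference of -2.11, and Lep had the smallest p at -3.80 (limma adjusted p = 0.0591). The 5 skeletal muscle markers tested were higher (median 0.79) and the 5 macrophage markers lower (median -0.26), none at that p. The summed log2 level of the 6 had a lowest, median and highest value of 12.21, 14.61 and 15.17 in HFD-STZ-DR24 and of 13.92, 16.34 and 16.74 in HFD-STZ24, Cfd had the highest mean value of them (14.07), and none was at 0. The adipocyte score averaged 10.64 in HFD-STZ-DR24 and 12.8 in HFD-STZ24, so diet and this covariate cannot be fully separated here either. With the scores of the adipocyte and skeletal muscle lists as covariates, 11 of the 18 endothelial markers were lower in that comparison (51.1% of all genes), 1 at an unadjusted p under 0.05, and 3 of the 10 genes were lower. The differences of Plvap and Pecam1 turned to 0.52 and 0.24 (adjusted p = 0.356 and 0.563), that of Cdh5 moved to 0.94 (adjusted p = 0.320), that of Cldn1 from 0.50 to 2.11 (adjusted p = 0.320) and that of Kdr to -0.012 (adjusted p = 0.963). The pair of libraries least like the rest were both in this comparison, HFD-STZ24 replicate 7 and HFD-STZ-DR24 replicate 4, with mean correlations with the other libraries of 0.939 and 0.957. Without both, a choice made after seeing the data, all 18 markers were lower, 13 at an unadjusted p under 0.05 and 1 called, while 46.7% of all 17781 genes were lower, 7.68% at that p, and 145 were called. None of the 10 genes was called, and Pecam1 had the smallest adjusted p (-0.62, adjusted p = 0.0881). Leaving out single libraries gave 7 to 12 markers at that p, and all 18 lower each time.

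**Figure D3:**
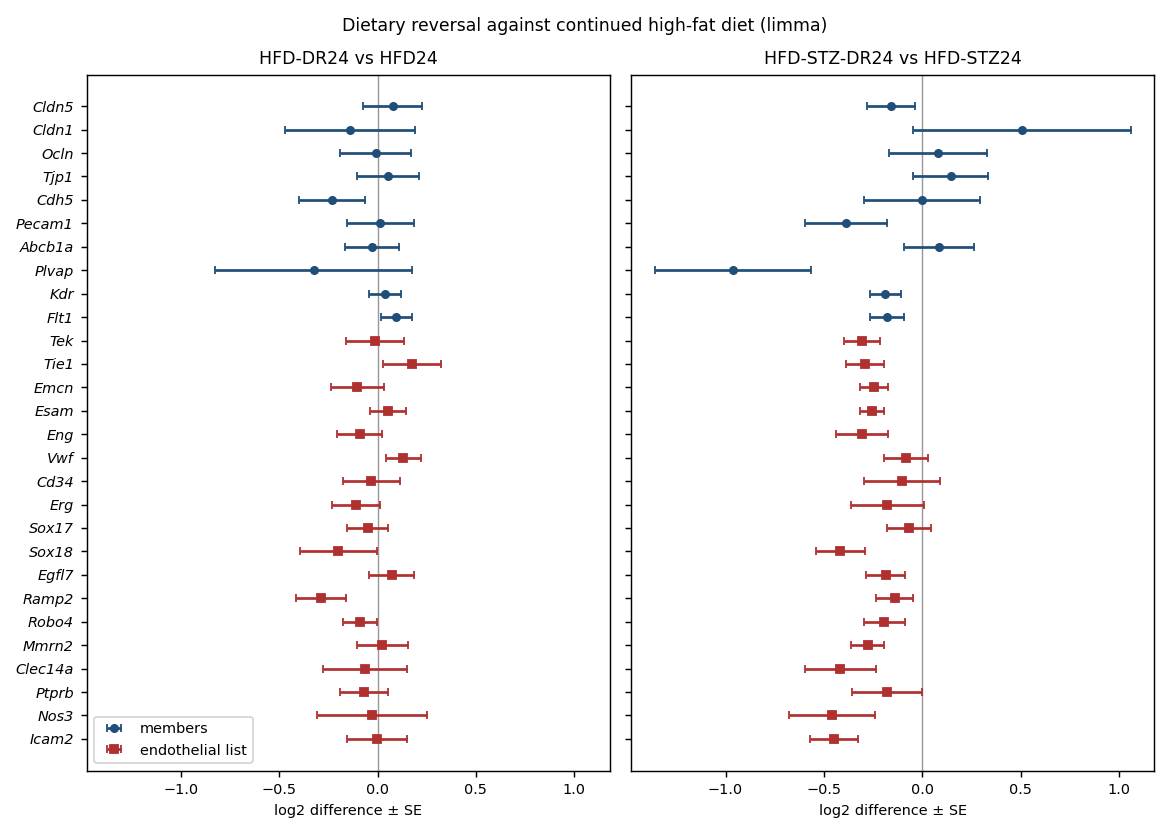
Log2 difference ± SE (horizontal axis, limma) of the 10 genes (circles) and 18 endothelial markers (squares) after dietary reversal without (left) and with (right) streptozotocin. All 18 squares lay below 0 on the right and 13 on the left.

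Between mice of one group the 10 genes rose and fell in sets. After group means were subtracted, Cldn1 correlated over the 53 libraries with Abcb1a (Pearson r = 0.90, Spearman rho = 0.91), Ocln (0.87 and 0.91), Tjp1 (0.85 and 0.87) and Cdh5 (0.85 and 0.83). Cldn1 and Cldn5 went in opposite directions (r = -0.72, rho = -0.75), in each of the 6 groups with at least 6 libraries (r from -0.93 to -0.53), with runs of library numbers also subtracted (-0.75) and without the 2 libraries farthest from the median of Cldn5 (-0.68). These are descriptions with no test, and the libraries share their cell make-up and their scaling. Pecam1 went with Plvap (r = 0.82, rho = 0.85), and Kdr and Flt1 went with each other only weakly (r = 0.23, rho = 0.29).

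Some of these genes went with the mean of a marker list. Cldn1 followed the mean of the 6 perineurial markers (r = 0.98, rho = 0.95), as did Abcb1a, Ocln and Tjp1 (r = 0.88, 0.85 and 0.81). The r of Abcb1a, Ocln and Tjp1 with the 18 endothelial markers was 0.22, 0.35 and 0.18. Cdh5 followed the 7 pericyte markers (r = 0.93, rho = 0.92), with an r of 0.86 with the perineurial and 0.60 with the endothelial markers. Pecam1 followed the 18 endothelial markers (r = 0.91, rho = 0.93) and Plvap the 6 adipocyte markers (r = 0.89, rho = 0.86). These 3 genes had slightly higher r with lists of a pathway or function, Cdh5 with 10 Wnt genes (0.94), Pecam1 with 16 VEGF and angiopoietin genes (0.92), and Plvap with 7 leukocyte adhesion genes (0.90). Cldn5 did not follow the endothelial markers (r = -0.18, rho = -0.21). It had its highest r with 6 epithelial markers (0.54) and with the 6 myelinating Schwann cell markers (0.51). Of the epithelial list only 2 passed the floor in each comparison, Cdh1 (mean 13.69) and Krt10 (8.47). The r with that list therefore does not show that epithelial cells were present. Kdr and Flt1 had an r of 0.61 and 0.47 with the endothelial markers. Libraries at the low end show it: in HFD-STZ24 replicate 7 Cldn1 was 10.68 and the perineurial mean 10.34, the lowest of all, and in SD16 replicate 1 Plvap was 7.95 and the adipocyte mean 8.22, again the lowest. The part of cell make-up in any of these relations was not tested.

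**Figure D4:**
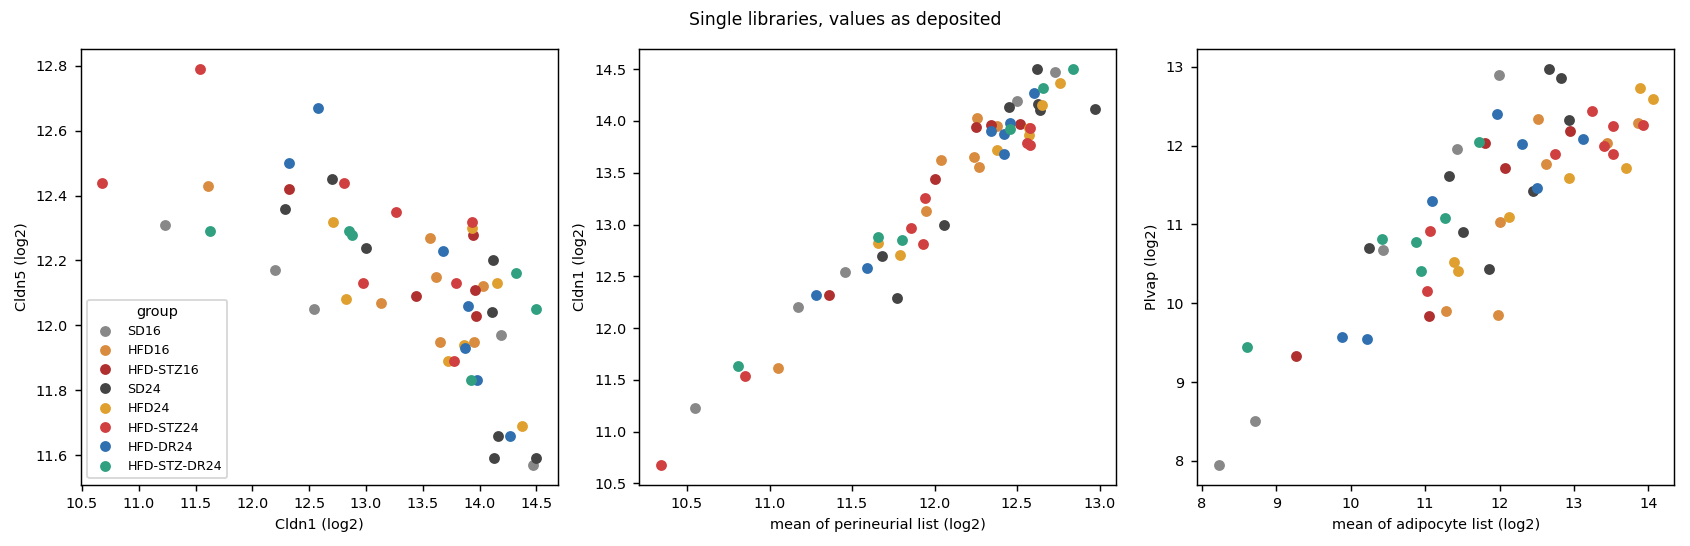
Deposited log2 values of single libraries, coloured by group: Cldn5 against Cldn1, Cldn1 against the mean of 6 perineurial markers, and Plvap against the mean of 6 adipocyte markers. Libraries of every group spread along the same relation, downward in the left panel and upward in the other 2.

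The 3 genes closest to each member among 18063 other genes were named by this correlation. Cldn1 was nearest to Msln, Itgbl1 and Mpzl2 (r = 0.99, 0.99 and 0.98), of which Msln is also in the perineurial list. Ocln was nearest to Moxd1, Boc and Klf5 (0.93, 0.93 and 0.92), Tjp1 to Dock9, Atp13a3 and Lamc1 (0.96, 0.93 and 0.93), and Abcb1a to Smoc2, Gabra3 and Sdc2 (0.93, 0.92 and 0.92). Cdh5 was nearest to Rgma, Gucy1b3 and Bgn (0.94, 0.93 and 0.93), Pecam1 to Eln, Eng and Ces1f (0.91, 0.91 and 0.90), and Plvap to A530016L24Rik, Cdo1 and Lrg1 (0.94, 0.92 and 0.92). For Cldn5 these were Fam181b, Pdgfa and Gamt (0.82, 0.81 and 0.80), for Kdr Arhgef15, Ephx2 and Ppp2r5a (0.73, 0.71 and 0.70), and for Flt1 Tbx3, Gbp10 and Tmem88 (0.62, 0.57 and 0.57). Each r is over 53 libraries with group means subtracted and carries no p.

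**Figure D5:**
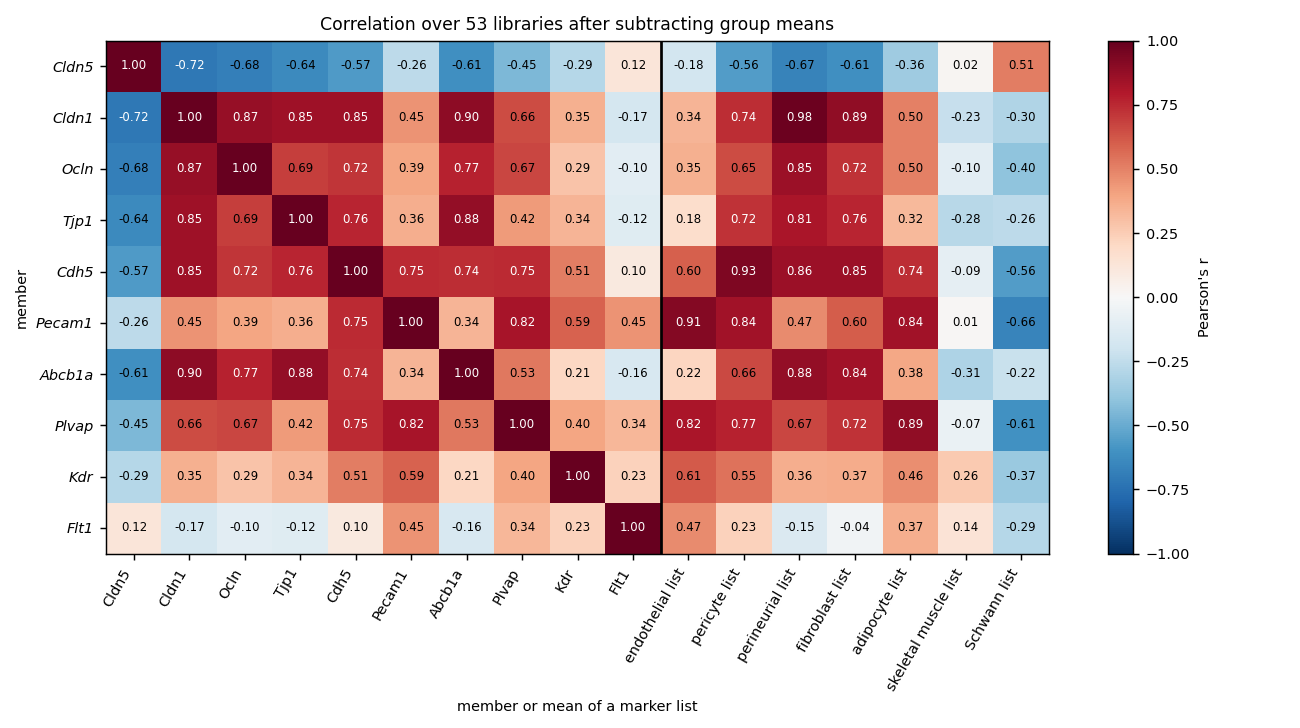
Pearson's r over 53 libraries, group means subtracted, between the 10 genes (rows) and the 10 genes or the mean of 7 marker lists (columns). Cldn1, Ocln, Tjp1, Cdh5 and Abcb1a form a block of positive values, the Cldn5 row is mostly negative, and Flt1 has the weakest values.

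Libraries also fell into 8 runs of consecutive numbers, each with 3 to 8 libraries of several groups. An F test over these runs with the groups in the model, chosen after seeing the data, called 1.86% of genes and 0 of the 10. At an unadjusted p under 0.05 it counted 19.8% of genes and 1 of the 10, Pecam1 (limma adjusted p = 0.172).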

How the data were processed

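RNA-seq was run on mouse sciatic nerve in 53 libraries of 8 groups. Per the labels and the study's methods, the authors aligned reads to mm10 with HISAT2 and counted them with featureCounts, and DESeq2 is named among their tools. The deposited values are log2 values per gene symbol. The methods name FPKM for expression levels and an approximate number of reads per sample. Whether the deposited values derive from FPKM and how they were normalised is not stated, and they were taken as not yet divided by gene length. The files give no depth per library. The labels and the methods name different RNA and library kits, so strand use is not certain here. Members and lists were chosen with earlier results of these data known. Pairs of groups were compared with limma 3.58.1 in R 4.3.3 (variance prior following mean level), on genes whose mean log2 level reached a floor of about 10 on the linear scale, leaving out 25 genes with a value above 22, and genes were called at a Benjamini-Hochberg adjusted p under 0.05 over all genes tested. Single genes were also tested by a 2-sided exact permutation test, with no adjustment over the list. The fit was tested on simulated data. Named list genes were those with the smallest unadjusted p in each direction, of which a part is given. Figures and correlations used Python 3.11.15 with numpy 2.4.6. Positions and lengths came from GENCODE on GRCm38 and promoters from RefSeq (7 of the 10 genes matched; Cdh5, Pecam1 and Plvap had no entry). No 2 libraries held identical values.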

Additional observations from a re-analysis of the deposited data

Results flagged for a closer look

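In 80 sets of a gene and a group, 5 values lay far from the rest of their group, and chance flags about 1 in 20 groups. HFD16 replicate 7 was low in 3 junction genes: Cldn1 at 11.61, with the next library at 13.13, Ocln at 7.61, next 8.85, and Tjp1 at 12.79, next 13.30. The mean of the 6 perineurial markers was also lowest in that library (11.05, next 11.95), as was that of the 6 fibroblast markers (14.22, next 14.35). Flt1 was low in SD24 replicate 4 (10.68, next 11.10) and in HFD24 replicate 7 (10.82, next 11.07).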

How the results depend on the processing

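The count of 0 members called held in each of the 14 comparisons under no filter on low values, a stricter floor, all groups in 1 fit, runs of library numbers as a covariate, 2 other variance priors, median centring, scaling to the endothelial list and keeping genes above 22, and when each library was left out in turn (smallest adjusted p over all of these 0.152). Exceptions came with adipocyte and skeletal muscle scores as covariates: 3 members were called in HFD16 vs SD16 (Cldn1 -1.92, Ocln -1.41, Plvap -2.28; adjusted p 0.0395, 0.0293 and 0.0293) and 1 in HFD24 vs SD24 (Pecam1 -0.40, adjusted p 0.0298). Those fits called 137 of 17966 and 143 of 18195 genes. The adipocyte score itself differed with diet, so these fits cannot fully separate the 2, and the cause was not tested. With those covariates 11 of 18 endothelial markers were lower in HFD-STZ-DR24 vs HFD-STZ24, 1 at an unadjusted p under 0.05. Of 22 member differences followed, these turned sign. With the covariates, Cdh5 in HFD-DR24 vs HFD24 (0.018), Cdh5 and Cldn1 in HFD24 vs SD24 (-0.057 and -0.31) and Plvap in HFD-STZ-DR24 vs HFD-STZ24 (0.52) did. In that comparison Pecam1 turned as well (0.24), Cdh5 was 0.94, Cldn1 2.11 and Kdr -0.012. Other differences given in the text moved by over 1.5 times with the covariates: Cldn5 in HFD24 vs SD24 (0.058), Cldn1 in HFD-STZ24 vs SD24 (-1.44), Tjp1 in HFD-STZ16 vs SD16 (0.20) and Kdr in HFD-STZ-DR24 vs HFD-DR24 (-0.10) and vs SD24 (-0.12). Relative to the endothelial list, Flt1 and Kdr in HFD-STZ-DR24 vs HFD-DR24 were -0.091 and -0.041, the Flt1 difference between reversal effects was -0.058, and Kdr in HFD-STZ-DR24 turned against HFD-STZ24 (0.065) and against SD24 (0.075). With runs as a covariate Cldn1 in HFD24 vs SD24 was -0.050. Leaving out single libraries gave -0.17 to 0.18 for that difference and -0.026 to 0.097 for that of Cldn5. It gave ranges for Cldn1 in HFD-STZ24 vs SD24 from -0.97 to -0.47, Cdh5 in HFD-DR24 vs HFD24 from -0.32 to -0.11 and in HFD24 vs SD24 from 0.093 to 0.24, Tjp1 in HFD-STZ16 vs SD16 from 0.25 to 0.52, and for the count of endothelial markers lower in HFD-DR24 vs HFD24 from 7 to 16 (3 with the covariates). Counts of all genes called moved more: 22 in HFD24 vs SD24 became 14 to 143, 6 in HFD-STZ24 vs SD24 became 4 to 21, 2 in HFD-DR24 vs HFD24 became 0 to 30, 15 in HFD-STZ-DR24 vs HFD-STZ24 became 0 to 47 (0 to 167 without single libraries, 145 without the 2 least like the rest), 12 in HFD24 vs HFD16 became 0 to 26, 1 in HFD16 vs SD16 became 1 to 137, 0 in SD24 vs SD16 became 0 to 126, 0 in HFD-STZ24 vs HFD-STZ16 became 0 to 30, 0 in HFD-STZ16 vs SD16 became 0 to 10, 0 in HFD-STZ24 vs HFD24 became 0 to 4, 0 in HFD-STZ-DR24 vs SD24 became 0 to 1 (0 to 20 without single libraries), and 356 over the 8 groups became 187 to 571. The depth of single libraries is not in the files and sets no interval here.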
